A study of Homo sapiens with 4 samples.

Results

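The 9 genes described here make, salvage or remove the deoxyribonucleoside triphosphates (dNTPs) from which DNA is copied, and they are 9 of the 24934 rows of an expression table from HEK-293 cells. They are RRM1, RRM2 and RRM2B, which encode the subunits of ribonucleotide reductase, TYMS, DTYMK and TK1 of the thymidylate branch, DCK of nucleoside salvage, and DUT and SAMHD1, which remove nucleotides. The set was chosen by function around RRM2, and RRM2 itself was selected on its FPKM values in these same libraries because they differed between the siRNAs, so that its values are given as a description and are not tested. All 9 genes were measured above 1 FPKM (fragments divided by transcript length and by the size of the library) in all 4 libraries.

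Ribonucleotide reductase converts ribonucleoside diphosphates to deoxyribonucleoside diphosphates and is the rate-limiting enzyme of de novo dNTP synthesis. Its large subunit, RRM1, pairs either with RRM2, a small subunit made mainly in S phase and degraded afterwards, or with RRM2B, a p53-inducible small subunit used by cells outside S phase. Cycling cells also draw on thymidylate synthase and on salvage kinases, while hydrolases keep dUTP and dNTP pools in check.

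HEK-293 is a human embryonic kidney cell line that carries adenovirus early-region genes, whose products bind the retinoblastoma and p53 proteins. Cells were transfected for 48 h, using Lipofectamine RNAiMAX, with 10 nM of 1 of 4 oligonucleotides, namely si4 or si5 against ZSCAN5A, si1 against ZSCAN5B, or a scrambled negative control. ZSCAN5A and ZSCAN5B encode zinc finger transcription factors. Each oligonucleotide is represented by 1 mRNA library, so si4 and si5 are different siRNAs rather than replicates of a treatment, and no value here has a replicate of its own.

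Depth was approximately 53500000 to 82700000 fragments per library, as estimated from low FPKM values that stand in whole-number proportions, with si5 the deepest. The ZSCAN5A siRNAs left 0.730 (si4) and 0.713 FPKM (si5) of ZSCAN5A, 30.2% and 29.5% of the control level of 2.42 FPKM. ZSCAN5B was not lower in the library transfected with its own siRNA, at 0.0948 FPKM against 0.0903, which correspond to 16 and 15 fragments (105% of control, 95% Clopper-Pearson interval 48.6 to 228%). It stood at 36.6% of control with si4 (11.6 to 99.9%) and 73.4% with si5 (34.5 to 158%), and so few fragments hardly check the label. That sample is therefore called the library labelled ZSCAN5B knockdown, or the si1 library after its siRNA. Of 7 kidney and HEK-293 markers, 6 were above 1 FPKM in every library. The remaining marker, PAX2, stood at 0.584, 0.615 and 0.608 FPKM with si4, si5 and si1, against 1.16 in the control. Of 7 markers of other cell types, 0 reached 1 FPKM in any library, and their summed level was 0.0808 to 0.254 FPKM.

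RRM2 was the member that varied most. It stood at 87.9 FPKM in the control, 79.7 with si5, 54.1 with si4 and 46.5 in the library labelled ZSCAN5B knockdown. These levels were 90.7% of control with si5 (95% interval 88.8 to 92.6%), 61.5% with si4 (60.0 to 63.1%) and 52.9% with si1 (51.5 to 54.3%), from about 8237 to 21472 fragments per library. The intervals cover counting error only, and they describe values on which the gene was selected. In bulk RNA, fewer cells in S phase and less RRM2 RNA per cell cannot be told apart.

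**Figure D1:**
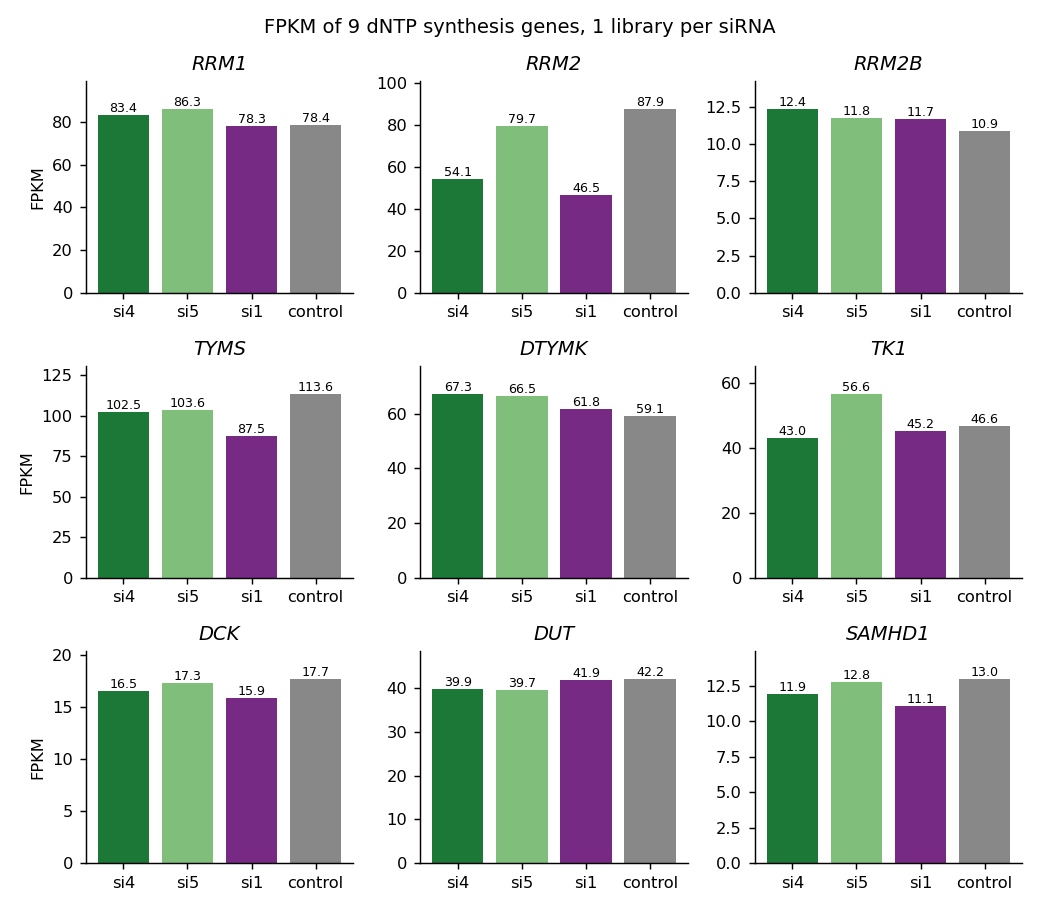
FPKM of the 9 dNTP synthesis genes (vertical axes, FPKM from 0) in the si4, si5, si1 and control libraries, 1 bar per library with its value above it and no error bars because each siRNA has 1 library. RRM2 is at 87.9 FPKM in the control and 46.5 in the si1 library, while the bars of the other genes are within 1.32-fold of each other.

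RRM2 lies on chromosome 2 (hg19, chr2:10262695-10271546, plus strand). A promoter window of the gene is shown because it is the member with the widest range. That of TYMS, the member with the next lowest ratio in the si1 library, is shown for comparison. Both are RefSeq windows of 300 bases on GRCh38.p14, reaching from upstream of the annotated start into the transcript. Capitals mark the words searched on both strands, CCAAT and the E2F-type words TTTCCCGC, TTTGGCGC, TTTGCCGC and TTTCGCGC.
RRM2, chr2:10122489-10122788, plus strand: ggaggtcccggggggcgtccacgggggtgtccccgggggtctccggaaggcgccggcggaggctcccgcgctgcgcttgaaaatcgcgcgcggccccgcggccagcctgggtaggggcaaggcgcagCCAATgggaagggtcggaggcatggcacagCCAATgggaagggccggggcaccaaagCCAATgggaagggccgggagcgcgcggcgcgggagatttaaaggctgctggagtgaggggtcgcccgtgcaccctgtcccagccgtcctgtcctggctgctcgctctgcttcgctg
TYMS, chr18:657403-657702, plus strand: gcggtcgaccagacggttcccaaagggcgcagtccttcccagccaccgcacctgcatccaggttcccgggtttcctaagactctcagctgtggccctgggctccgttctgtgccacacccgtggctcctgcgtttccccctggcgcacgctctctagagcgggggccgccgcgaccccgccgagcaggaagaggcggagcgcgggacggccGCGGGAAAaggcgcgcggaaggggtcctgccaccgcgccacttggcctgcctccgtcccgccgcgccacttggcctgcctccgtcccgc

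The RRM2 window shown held CCAAT at 123, 93 and 66 bases before its start and held none of the E2F-type words. A further RRM2 window, for another annotated start (chr2:10122318-10122617), held CCAAT 249 bases before that start and none of the E2F-type words. The TYMS window held an E2F-type word on the minus strand 39 bases before the start and no CCAAT. For 8 members, leaving out RRM2B, 13 windows were read, of which 6 held CCAAT (in RRM1, RRM2, DTYMK, TK1 and SAMHD1) and 3 held an E2F-type word (in TYMS, DCK and DUT). Among 35116 promoters of the same length, 34.6% held CCAAT and 3.31% held an E2F-type word. A match describes letters and not a bound site, and no binding was measured at these windows here.

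In the comparison that pools the ZSCAN5A siRNAs, the mean of si4 and si5 was 66.9 FPKM for RRM2, 1.31-fold lower than the control (log2 ratio -0.39). The pooled value covers 2 unequal libraries, with log2 ratios of -0.70 for si4 and -0.14 for si5. Against the control, RRM2 ranked 63 from the lowest ratio of 12921 genes in the si1 library, 408 of 12928 with si4 and 4079 of 12922 with si5. With si5 it therefore lay well inside the spread of the genes tested. The library labelled ZSCAN5B knockdown was 1.44-fold below the mean of the ZSCAN5A siRNAs (log2 -0.53), and si4 was 1.47-fold below si5 (log2 -0.56). The si1 library was close to si4 (log2 -0.22 against it) and farther from si5 (log2 -0.78).

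**Figure D2:**
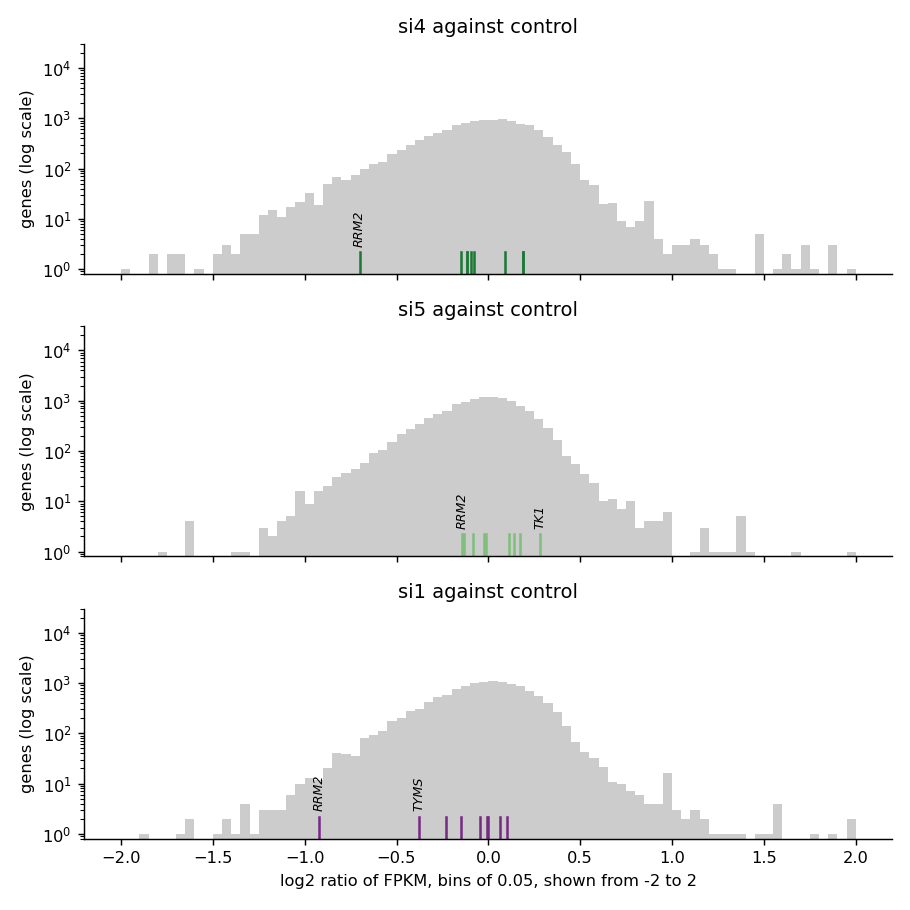
Distribution of log2 FPKM ratios to the control (horizontal axis, bins of 0.05) for all genes reaching 1 FPKM in either library, as gene counts on a log axis, with coloured ticks for the 9 members in the si4, si5 and si1 libraries. RRM2 sits at -0.70, -0.14 and -0.92, and the remaining ticks lie between -0.38 and 0.28.

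A gene was called where 2 levels differed by more than 1.5-fold and any library compared reached 1 FPKM. This rule called 0 of 9 members for the ZSCAN5A siRNAs against the control, where it called 3.79% of all genes. In the library labelled ZSCAN5B knockdown it called 1 of 9, RRM2, where it called 4.01% of all genes, 3.17% in the lower direction. It called 0 of 9 between the library labelled ZSCAN5B knockdown and the ZSCAN5A siRNAs (1.31% of all genes) and 0 of 9 between si4 and si5 (2.53%). Taken by itself, the si4 library had RRM2 past the limit, beside 5.21% of all genes in the lower direction, and the si5 library had 0 members past it, beside 2.95%. The single call is the gene on which the set was selected, so nothing is read from its count.

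The large subunit, RRM1 (chr11:4115924-4160106), which carries the active and allosteric sites, stood at 83.4 FPKM with si4 and 86.3 with si5, while si1 and the control were alike at 78.3 and 78.4. Its range over the 4 libraries was 1.10-fold, against 1.89-fold for RRM2. RRM2B stood at 12.4, 11.8, 11.7 and 10.9 FPKM in the same order, with all 3 siRNA libraries slightly above the control (107 to 114% of it).
Levels per length allow the subunits to be set against each other. The FPKM ratio of RRM1 to RRM2 was 0.891 in the control, 1.08 with si5, 1.54 with si4 and 1.68 with si1, so RRM2 exceeded RRM1 in the control only. The ratio of RRM2 to RRM2B was 8.08 in the control, 6.77 with si5, 4.37 with si4 and 3.99 with si1. In every library RRM2 was the more abundant small-subunit transcript. Both ratios contain RRM2, and their order over the libraries follows its own values.

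In the thymidylate branch, TYMS, which methylates dUMP to dTMP, was the most abundant member in every library. It stood at 113.6 FPKM in the control, 102.5 and 103.6 with si4 and si5, and 87.5 with si1, and the si1 library was 77.0% of control (95% counting interval 74.7 to 79.4%). The log2 ratios to the control were -0.15, -0.13 and -0.38, so si4 and si5 were nearly alike and the si1 library lay lower. TYMS (chr18:657604-673499) overlaps ENOSF1 and C18orf56, and ENOSF1 stood at 85.4%, 89.2% and 80.1% of control with si4, si5 and si1. Whether reads of the overlapping genes enter the TYMS value was not tested.
DTYMK (chr2:242615157-242626383), the kinase that turns dTMP into dTDP, stood at 67.3, 66.5, 61.8 and 59.1 FPKM with si4, si5, si1 and control. Its siRNA libraries were all above the control, by log2 0.19, 0.17 and 0.07.
TK1 (chr17:76170160-76183285), the thymidine salvage kinase of S phase, had another order, with 43.0 FPKM in the si4 library, 56.6 in si5, 45.2 in si1 and 46.6 in the control. The si5 library stood above the rest, and si4 was 76.0% of si5 (95% counting interval 73.0 to 79.2%), the widest gap between the ZSCAN5A siRNAs after that of RRM2. TK1 differed from RRM2 in its place relative to the control, which was the highest library for RRM2 and stood behind si5 for TK1.

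DCK (chr4:71859265-71896629), which phosphorylates deoxycytidine and other deoxynucleosides, stood at 16.5, 17.3, 15.9 and 17.7 FPKM with si4, si5, si1 and control. DUT (chr15:48623621-48635570), the dUTPase that keeps uracil out of DNA, was the steadiest member at 39.9, 39.7, 41.9 and 42.2 FPKM. It has 8 annotated pseudogenes, against 3 for RRM2 and 2 for TYMS, and reads shared with such copies make the level of DUT less certain. SAMHD1 (chr20:35520227-35580246), a triphosphohydrolase that degrades dNTPs, stood at 11.9, 12.8, 11.1 and 13.0 FPKM, with the si1 library at 85.3% of control. SAMHD1 overlaps C20orf118, and whether reads of that gene enter its value was not tested. Among the 6 members other than RRM2, TYMS and TK1, the highest library exceeded the lowest by 1.06- to 1.17-fold.

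Leaving RRM2 aside, the members' ratios stayed within 1.13-fold for the ZSCAN5A siRNAs against the control, 1.30-fold for the library labelled ZSCAN5B knockdown, 1.18-fold between these and 1.32-fold between si4 and si5. Counting members by sign, 4 of 9 lay above the control and 5 below it with the ZSCAN5A siRNAs, with a median log2 ratio of -0.06 beside -0.02 for all genes. In the library labelled ZSCAN5B knockdown 2 lay above and 7 below, with a median of -0.04 beside -0.01, although RRM1 (log2 -0.001) turned to 0.005 with median-ratio and 0.009 with upper-quartile scaling, and DUT (-0.01) to 0.0 with the latter. Both comparisons use the same control library. Against the ZSCAN5A siRNAs, 8 of 9 were lower in the library labelled ZSCAN5B knockdown, with a median of -0.12 beside 0.01 for all genes, and between si4 and si5 the median was -0.05 beside 0.02.

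**Figure D3:**
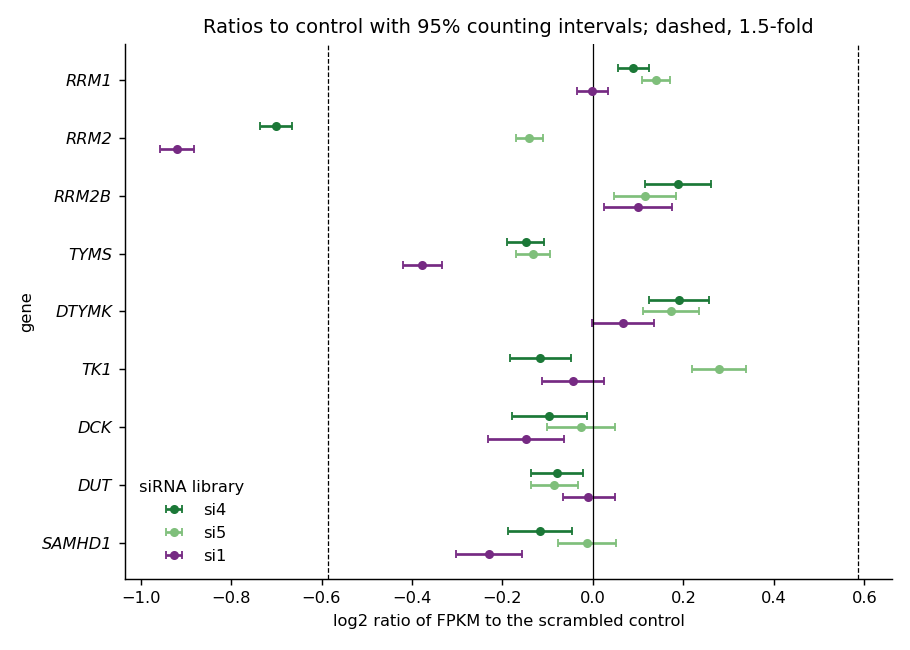
Log2 FPKM ratio to the control (horizontal axis) of each of the 9 genes in the si4, si5 and si1 libraries, with 95% counting intervals that carry no replicate error. RRM2 with si1 and si4 lies outside the 1.5-fold limits, and the other members lie between -0.38 and 0.28.

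A fit of limma over log2(FPKM + 1), treating si4 and si5 as the only replicated group with 1 residual degree of freedom, gave a second view of the 8 members other than RRM2. It called 0 of 8 for the ZSCAN5A siRNAs against the control, where limma called 0.0765% of all genes, and the lowest adjusted p was 0.469 for DTYMK. For the library labelled ZSCAN5B knockdown it called 0 of 8, beside 0.115% of all genes, and TYMS had an adjusted p of 0.497 in limma and an unadjusted p of 0.0281. By unadjusted limma p under 0.05, 1 of 8 (TYMS) passed in that comparison, near the 9.92% of all genes that did, and 0 of 8 passed with the ZSCAN5A siRNAs, beside 12.3% of all genes. Between the library labelled ZSCAN5B knockdown and the ZSCAN5A siRNAs limma called 0 of 8, beside 0.115% of all genes, with 0 of 8 under 0.05 unadjusted, beside 2.65% of all genes. The lone control and si1 libraries are assumed in this fit to vary as si4 and si5 do.

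Of 35 further genes of dNTP supply (nucleotide kinases, pyrimidine and purine synthesis, thioredoxin and glutaredoxin), 34 were expressed and 0 of 34 passed the 1.5-fold limit in any of the 4 comparisons. Beside this, the limit called 3.79% of all genes for the ZSCAN5A siRNAs, 4.01% for si1, 1.31% between the targets' siRNAs and 2.53% between si4 and si5. A count of 0 is near these shares. With the ZSCAN5A siRNAs 23 lay above the control and 11 below (median log2 0.12), and in the library labelled ZSCAN5B knockdown 20 lay above and 14 below (median 0.07).
The highest ratio in both was that of NME1, a nucleoside diphosphate kinase, at 415.4, 385.8, 404.4 and 277.5 FPKM with si4, si5, si1 and control. GLRX, a glutaredoxin that can reduce ribonucleotide reductase, stood at 30.5, 31.5, 33.0 and 23.3 FPKM. NME2, another nucleoside diphosphate kinase, stood at 1483, 1448, 1433 and 1134 FPKM, and thioredoxin (TXN) at 298.7, 265.1, 304.7 and 226.5.
In these 4 genes all siRNA libraries lay above the control. CAD, which begins pyrimidine synthesis, was below the control in all 3, at 11.2, 12.7 and 11.9 FPKM against 16.5. CMPK1, the UMP and CMP kinase, was at 36.7 FPKM with si1 against 47.7 to 50.9 in the remaining libraries, and ADSS of purine synthesis was at 44.8 against 54.1, 52.6 and 55.7.
Among the lowest ratios for the ZSCAN5A siRNAs, CTPS, the CTP synthase, stood at 30.1 and 33.9 FPKM against 39.5, with si1 at 40.2. Mitochondrial TK2 stood at 2.93 and 2.27 against 3.34, with si1 at 2.97.

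Smaller sets that bear on RRM2 were read in the same way. Of 12 dNTP and nucleoside breakdown genes, 11 were expressed against the control and 0 of 11 passed the limit with either target's siRNAs. The limit called 3.79% of all genes for the ZSCAN5A siRNAs and 4.01% for si1. In the si1 library 9 of 11 lay above the control (median log2 0.17, beside -0.01 for all genes). Of 6 genes whose products act on RRM2 protein turnover, 0 of 6 passed, beside the same shares of all genes. With the siRNAs of either target 4 of the 6 lay above the control and 2 below. The median log2 ratio was 0.04 with the ZSCAN5A siRNAs and 0.07 in the si1 library. CCNF, the cyclin F that marks RRM2 for degradation, was among the 2 below. It stood at 7.97, 7.01, 7.17 and 10.3 FPKM with si4, si5, si1 and control.
Of 12 p53 target genes, 8 lay below the control and 4 above with the ZSCAN5A siRNAs (median log2 -0.17, beside -0.02 for all genes). In the si1 library 10 lay below and 2 above (median -0.23, beside -0.01), and 0 of 12 were past the limit there, beside 4.01% of all genes. With the ZSCAN5A siRNAs 2 were past the limit and lower, beside 3.11% of all genes, BTG2 at 31.0 and 29.3 FPKM against 45.7 and TP53INP1 at 4.53 and 4.27 against 7.17. Between si4 (3.22 FPKM) and si5 (6.09) ZMAT3 was past it, beside 1.56% of all genes in that direction. RRM2B, also a p53 target, was slightly above the control in the same libraries.

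Cell cycle genes were read beside RRM2 and TK1 because both are S phase genes. Of 26 other G1 and S phase genes, 0 of 26 passed the limit in any comparison, beside 1.31% to 4.01% of all genes. With the ZSCAN5A siRNAs 17 lay above the control and 9 below, and in the library labelled ZSCAN5B knockdown 8 lay above and 18 below (median log2 -0.07). Between the library labelled ZSCAN5B knockdown and the ZSCAN5A siRNAs 22 of 26 were lower, with a median of -0.10, against -0.53 for RRM2.
Of 20 G2 and M phase genes, 17 were lower in the latter comparison, and CENPE, a kinetochore motor, was the only one past the limit (0.628% of all genes in that direction), at 8.89, 9.78, 5.95 and 6.41 FPKM with si4, si5, si1 and control. Between si4 and si5, 18 of the 20 were lower with si4 (median log2 -0.14, beside 0.02 for all genes). Against the control, 14 lay above and 6 below with the ZSCAN5A siRNAs (median 0.09, beside -0.02 for all genes). In the si1 library 11 lay above and 9 below (median 0.005, beside -0.01 for all genes). The part of cell cycle stage in the RRM2 levels was not tested.
Of 13 genes for E2F, DP and pocket proteins, which regulate S phase genes, 2 were past the limit and lower in the library labelled ZSCAN5B knockdown, where 3.17% of all genes were. TFDP1, the DP partner of E2F factors, stood at 61.6, 59.8, 25.8 and 63.8 FPKM with si4, si5, si1 and control (log2 -1.31 for si1). The relation of TFDP1 to the RRM2 level was not tested. E2F7, a repressor of the family, stood at 10.9 FPKM with si4, about the same with si5, 10.0 with si1 and 16.1 in the control.

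**Figure D4:**
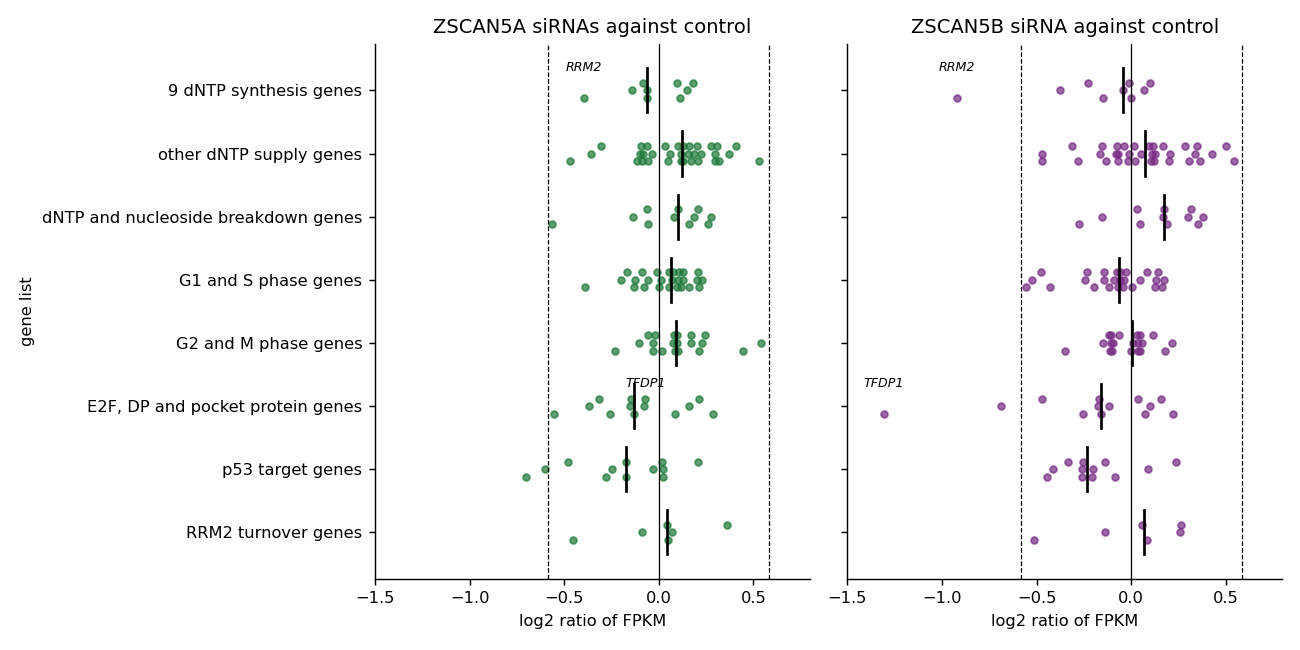
Log2 FPKM ratio to the control (horizontal axis) for each expressed gene of 8 gene lists, with the ZSCAN5A siRNAs on the left and the ZSCAN5B siRNA on the right, where black bars are list medians and dashed lines the 1.5-fold limits. RRM2 is the only dNTP synthesis gene past the limit, on the right at -0.92, and TFDP1 lies at -1.31 in the same comparison.

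The siRNA sequences are shown because a guide can also act through its seed, the 7 bases at positions 2 to 8 of the guide. The lines give the 21-base target sequences, and capitals mark the bases that pair with the seed, with the guide taken as the reverse complement of the target.
si4: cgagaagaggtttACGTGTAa
si5: aagctagtcatccACAAGAGa
si1: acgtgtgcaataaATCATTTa

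The seed site of si4 was in the 3′ UTR of 0 of 9 members, and that of si5 was in that of RRM2B alone. The site of si1 occurred 1 time in the 3′ UTR of RRM2, DCK and SAMHD1 and 3 times in that of RRM2B, and DCK held 1 more before its 3′ UTR. The other 5 members held none. Of 11986 expressed genes, 402 held the si4 site (3.35%), 1434 the si5 site and 2810 the si1 site (23.4%). The GENCODE transcript stretches around the si1 site are shown with the site in capitals. They lie at bases 1699 to 1705, 1330 to 1336 and 1944 to 1950 of the respective 3′ UTRs.
RRM2: tagttttcttcATCATTTattgtatagac
DCK: aagatgtaataATCATTTtagaattaaaa
SAMHD1: tttctgttaaaATCATTTtatttctgtgt

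In the si1 library RRM2 was at 52.9%, DCK at 90.2% and SAMHD1 at 85.3% of control, whereas RRM2B, with 3 sites, was at 107%. TYMS, with none, was at 77.0%. Across all expressed genes the median log2 ratio in the si1 library was -0.06 for 2808 genes with the si1 site and 0.009 for 9164 without it. The same site gave -0.04 and -0.002 in the si4 library and -0.032 and -0.024 in the si5 library, neither of which received si1. For their own sites, the medians were -0.29 with and -0.005 without in the si4 library, and -0.10 with and -0.02 without in the si5 library. No stretch of the RRM2 transcript came closer than 8 mismatches to the si4 or si5 target, or 6 to the si1 target. Whether any siRNA acts on RRM2 directly was not tested.

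The 5 genes whose pattern over the 4 libraries was most like that of RRM2, by Euclidean distance between centred log2 FPKM values among 5978 genes above 10 FPKM, were GXYLT1 (0.202), UHMK1 (0.238), PRKAA1 (0.247), INSIG1 (0.261) and VLDLR (0.262). GXYLT1 stood at 13.6, 16.9, 11.2 and 19.1 FPKM with si4, si5, si1 and control, and INSIG1, which restrains sterol synthesis, at 120.0, 153.8, 115.7 and 196.2. PRKAA1, a catalytic subunit of AMP-activated kinase, stood at 13.9, 21.4, 14.6 and 22.2. These genes were picked for their likeness to RRM2, so their shared order of libraries is no separate result.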

How the data were processed

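RNA from 4 HEK-293 cultures was sequenced as mRNA libraries (TruSeq Stranded mRNA HT in the labels, a KAPA stranded kit in the study's methods). The authors deposited 1 table of FPKM values with gene symbols and hg19 positions. The submitters' processing notes name CASAVA 1.8.2, Trimmomatic 0.30, TopHat2 2.1.0 and Cufflinks 2.2.1. The strand setting of the counting was not given in the sources used here. Cufflinks divides reads shared by overlapping genes or copies by estimation, which can shift their values. FPKM is relative to the library total, and read counts were not used here.

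The values were used as deposited. Genes were called past 1.5-fold where any library compared reached 1 FPKM, without a pseudocount. The ZSCAN5A siRNAs were compared as the mean of si4 and si5. Fragments were estimated from low values in whole-number proportions, found for 70.1% of 1745 genes under 0.1 FPKM, and ratios have 95% Clopper-Pearson intervals. limma 3.58.1 in R 4.3.3 with Benjamini-Hochberg adjustment over all genes was the alternative test and was tested on simulated data, as was the fold rule. The simulated data held counting error only and gave si4 and si5 the same true levels. Because the real si4 and si5 are different siRNAs, the simulation does not show how limma performs on these libraries. Scripts used Python 3.11.15, pandas 2.3.3 and SciPy 1.17.1. Transcripts were the canonical ones of GENCODE (95.0% of genes reaching 1 FPKM in any library matched). Promoters came from a RefSeq table, and siRNA target sequences came from the study's supplement. No sequence of RRM2B is reported here.

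The members and lists were chosen with earlier results of these data known. Named genes are the members, list genes past the limit, the 3 highest and 3 lowest dNTP supply genes for each target, and the 5 genes most like RRM2. CCNF was named after its values were seen. Alternatives changed the pseudocount, expression limit, fold limit, scaling, averaging, duplicate symbols and the siRNAs included.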

Additional observations from a re-analysis of the deposited data

How the results depend on the processing

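RRM2 kept its direction under all alternatives tried in the 4 comparisons, but it was selected on these values and its direction could hardly turn. The pseudocounts were small beside its level, and the scaling factors ran from 0.964 to 1.02. Its si4 and si5 levels both lay below the control and above si1, so leaving out either kept the sign. The kept direction is therefore no separate result. Of 117 values recomputed, 81 scored as the same and 36 as moved. Counts within 1.5-fold of the main count scored as the same, and RRM2 ratios did so within a margin. Where the ZSCAN5A siRNAs are pooled, that margin is the si4 and si5 standard deviation (log2 0.396). It is wider than the shift from leaving out si4 or si5, so the score says little there. Reversal could be scored only for RRM2 with si1 against the control, so it is not counted. The 117 values do not include the signs of the other members. With upper-quartile scaling RRM1 and DUT turned in the si1 library. DTYMK (0.018 to -0.053) and DUT (0.005 to -0.065) did so between si4 and si5. The RRM2 log2 ratio for the ZSCAN5A siRNAs turned on which library was used, from -0.14 without si4 to -0.70 without si5. That between the library labelled ZSCAN5B knockdown and the ZSCAN5A siRNAs ran from -0.78 without si4 to -0.22 without si5. Less the median of the 500 genes nearest in length and GC content, an alternative chosen after seeing the data, the si1 ratio of RRM2 was -0.98. With the same subtraction DTYMK turned from 0.066 to -0.038 in the si1 library. SAMHD1 turned from -0.064 to 0.022 with the ZSCAN5A siRNAs. DTYMK and DUT again turned between si4 and si5. With upper-quartile scaling si4 against si5 was -0.63, past the limit.

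Member counts were 1 for the ZSCAN5A siRNAs without si5, beside 822 of 12928 genes, and 0 without si4, beside 457 of 12922. Between the targets' siRNAs they were 1 without si4, beside 209 of 12814 genes, and 0 without si5, beside 330 of 12811. With upper-quartile scaling the count was 1 between si4 and si5, beside 399 of 12827 genes. A 1.2-fold limit gave 1, 1, 2 and 2 members for the ZSCAN5A siRNAs, between targets, for the si1 library and between si4 and si5. Beside these it called 3499 of 12993, 1345 of 12888, 3673 of 12921 and 2237 of 12800 genes. A 2-fold limit gave 0 for the si1 library, as did limma.

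Gene counts in that order of comparisons were 492, 169, 518 and 324. They were 199, 83, 210 and 167 with a pseudocount of 1, 2512, 1984, 2364 and 2142 with no expression limit, 205, 84, 252 and 151 with a limit of 5 FPKM, 73, 41, 67 and 89 at 2-fold, and 3499, 1345, 3673 and 2237 at 1.2-fold. limma called 10, 15 and 15 in the first 3. Leaving out si4 or si5 gave 457 to 822 genes for the ZSCAN5A siRNAs and 209 to 330 between targets. Of the calls, 61.7% were lower with si4 than si5, and 74.4% with upper-quartile scaling. Between targets 47.9% were lower, and 34.8% without si5. No paired analysis was possible because each oligonucleotide has 1 library and the labels pair no cultures. With 1 library per siRNA, siRNA, culture and library cannot be told apart, and depth limits the members little (2172 to 22417 estimated fragments).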
